A study of Mus musculus with 4 samples.

Results

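This account covers 10 genes of the mouse liver that are known targets of the transcription factor p53 and are linked to apoptosis. They are Tnfrsf10b, Fas, Eda2r, Bax, Bbc3, Pmaip1, Apaf1, Aen, Trp53inp1 and Ei24. Most belong to death receptor signalling or the mitochondrial route, while Aen, Trp53inp1 and Ei24 act in the nucleus, in autophagy and at the endoplasmic reticulum. The 10 genes were taken by name, with earlier results of these data known, from the 25239 genes listed for each library. All 10 were found and had enough reads to be tested. Liver RNA was sequenced in 2 libraries of C57BL/6 mice dosed by stomach tube with a Gynura segetum extract (the PAs group, 30 g/kg daily for 3 weeks, from an extract at 2 g/mL) and in 2 libraries of C57BL/6 mice dosed with normal saline over the same period (control). The mice were 6 to 8 weeks old, and neither a genotype nor a transgene is named for any group. Gynura segetum contains pyrrolizidine alkaloids, which liver enzymes convert to reactive pyrroles that bind DNA and protein. The question is how the hepatic mRNA profile differs after the extract. No label ties a library to an animal of its own, so p-values here gauge no more than the scatter among these 4 libraries, some or all of which could be technical.

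In the liver as elsewhere, p53 is held low by the ubiquitin ligase Mdm2 and is stabilised when DNA is damaged. It then switches on arrest genes and death genes. Death receptors on the cell surface recruit the adaptor Fadd and caspase 8, while BH3-only proteins such as Bbc3 (PUMA) and Pmaip1 (Noxa) act through Bax at the mitochondrial outer membrane, which lets cytochrome c reach Apaf1 and caspase 9. Hepatocytes are known as cells in which the death receptor route usually needs the mitochondrial route to complete apoptosis.

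Gene-assigned reads numbered 40013188 and 45754235 in the extract libraries and 49711750 and 32215268 in the control libraries. Of the cell type marker lists, that of hepatocytes had the highest summed level in all 4 libraries. Its 10 markers came to 110100 and 114800 CPM (reads of a gene scaled to a common library size) in the extract libraries. In the control libraries they came to 164600 and 168800 CPM. None of those markers was higher in extract, and 3 of 10 were lower. Higher and lower are calls at an edgeR adjusted p under 0.05, made for 4.91% and 3.63% of all genes tested. Of the Kupffer cell markers 9 of 10 were lower (59.9 and 60.5 CPM in all, against 668.5 and 534.5 CPM in control). So were 6 of 8 sinusoidal endothelial markers (195.1 and 191.2 CPM, against 344.8 and 331.7 CPM) and 2 of 8 stellate cell markers. The other 2 endothelial markers, Stab1 and Lyve1, were not past the threshold and lay higher in both extract libraries than in both control libraries. On the other lists, 1 of 6 cholangiocyte markers was lower, 1 of 8 monocyte and recruited macrophage markers was higher and 2 lower, and no T and NK cell (11 tested), B cell (6), neutrophil (4) or red cell marker (1) passed the threshold, with Hba-a1 and Hbb-bt listed at 0 throughout. In whole liver, fewer cells of a type and less RNA per cell cannot be told apart, and the part that these shifts have in the results on the 10 genes was not tested.

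All 10 genes lay higher in both extract libraries than in both control libraries, and 8 of the 10 passed the threshold, an adjusted p under 0.05 over 13963 genes by the quasi-likelihood test of edgeR. Over all genes tested, 4.91% were called higher and 3.63% lower (8.54% in either direction). Both extract libraries lay above both control libraries in 27.6% of them and below in 26.7%. The 8 genes that rose were Tnfrsf10b, Eda2r, Aen, Trp53inp1, Bax, Pmaip1, Bbc3 and Ei24. Fas and Apaf1 were not past the threshold. A log2 fold change above 1 was seen in 7 of the 10 genes, beside 7.71% of all genes tested. The median log2 fold change of the 10 genes was 2.23, beside a median of -0.0047 over all genes tested. Because the 10 genes were chosen with earlier results of these data known, these comparisons are descriptions and not tests. Together the 10 genes took 1231 and 1089 CPM in the extract libraries, against 410.6 and 362.0 CPM in the control libraries. Levels are CPM scaled by the trimmed mean of M values (TMM), a fold change is extract over control after the same scaling, and errors of a level are the SD over 2 libraries a group.

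**Figure D1:**
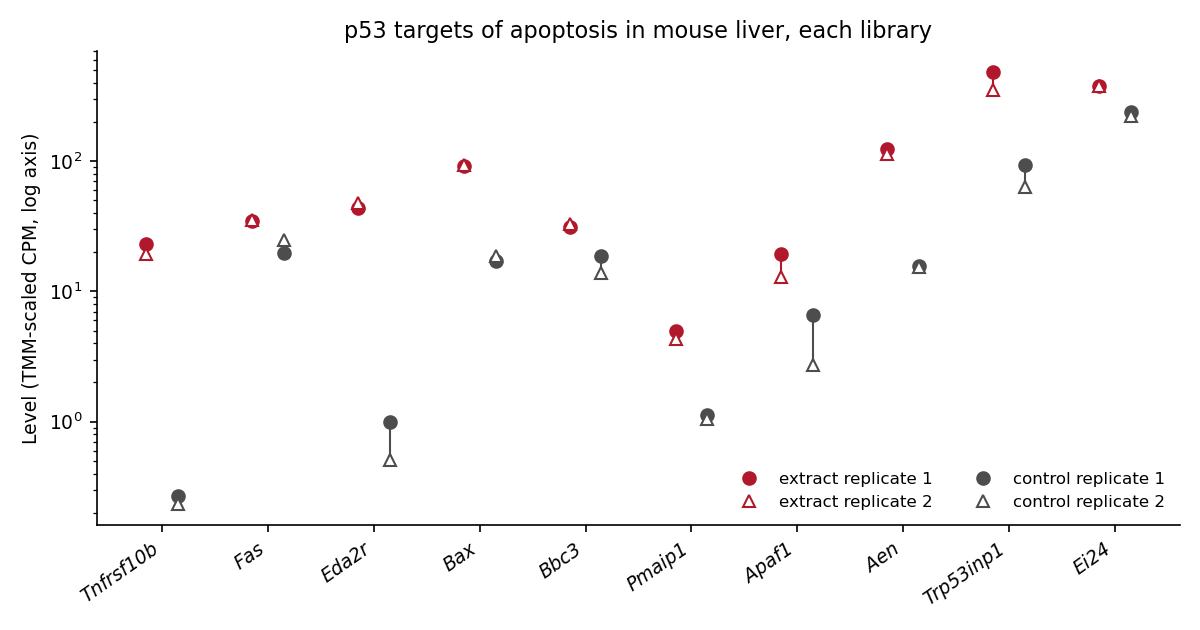
Level of each of the 10 genes in each library, in TMM-scaled CPM on a log axis, with extract in red and control in grey; circles are replicate 1 and triangles replicate 2. In every gene both extract libraries lie above both control libraries, and the distance runs from the narrow one of Fas to the wide one of Tnfrsf10b.

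The sizes of the 10 differences fell into a wide range. Tnfrsf10b and Eda2r stood at the top with log2 fold changes of 6.35 (95% interval 5.71 to 7.0) and 5.86 (5.15 to 6.57), whose intervals overlap. A step of 2.94 on the log2 scale, with intervals that do not overlap, separated Eda2r from Aen (2.93, interval 2.59 to 3.27). Below Aen the intervals of neighbouring genes overlapped all the way down, through Trp53inp1 (2.41), Bax (2.37), Pmaip1 (2.09), Apaf1 (1.77), Bbc3 (0.98), Ei24 (0.72) and Fas (0.66). Among all genes tested, Tnfrsf10b ranked 37th and Eda2r 44th by log2 fold change, while Ei24 ranked 1603rd and Fas 1757th.

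**Figure D2:**
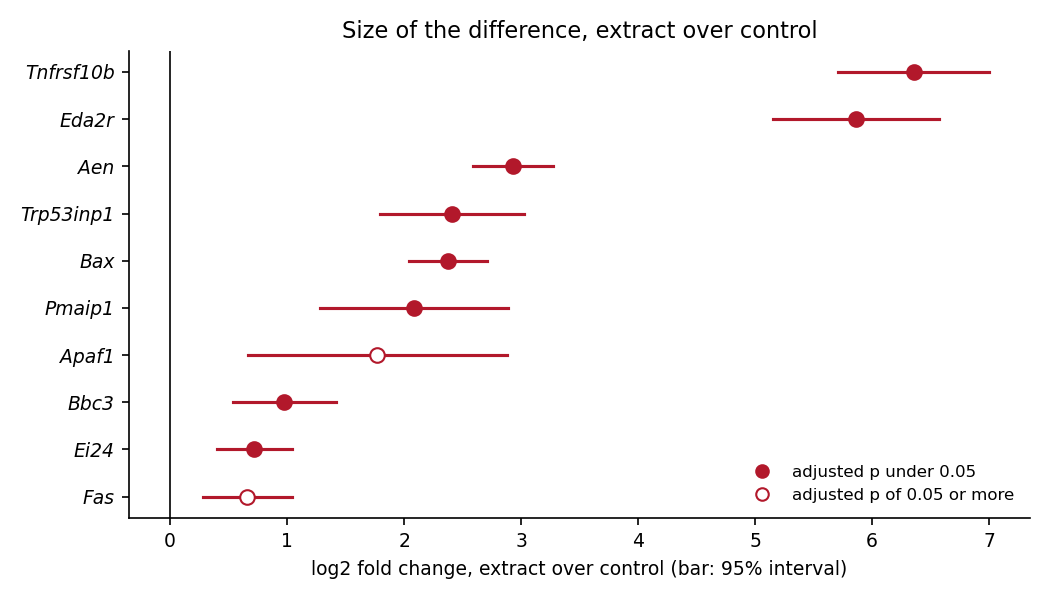
The log2 fold change of each gene, extract over control, with its 95% interval from edgeR's quasi-likelihood fit; filled points passed an adjusted p of 0.05 and open points did not. Tnfrsf10b (6.35) and Eda2r (5.86) stand apart from the other 8 genes, which lie between 0.66 and 2.93.

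Per kilobase of annotated exon, which allows levels to be compared between genes, the order also changed between the groups. In extract livers Ei24 was the most abundant at 77.6 CPM per kb, followed by Trp53inp1 at 64.2 and Bax at 59.2, and the Bax libraries (58.6 and 59.7) lay within the pair of Trp53inp1 (74.2 and 54.3). Aen (20.4), Fas (17.0), Bbc3 (15.04), Eda2r (7.78) and Tnfrsf10b (3.89) came next, and Apaf1 (1.79) and Pmaip1 (1.70) overlapped at the bottom. In control livers Ei24 led at 47.1 CPM per kb, and Trp53inp1 (12.1), Bax (11.4) and Fas (10.8) were not separated beyond the spread of their libraries. Bbc3 (7.62) and Aen (2.68) followed, Apaf1 (0.518) and Pmaip1 (0.397) overlapped, and Eda2r (0.128) and Tnfrsf10b (0.0465) were the lowest. Tnfrsf10b and Eda2r thus stood at the foot of the order in control livers and above Apaf1 and Pmaip1 in extract livers.

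Promoter sequence was available for 7 of the 10 genes in RefSeq's table for GRCm38.p6, which holds 250 bases before and 50 after each start site. It was searched on both strands for the p53 decamer, the 10-base unit that occurs as a pair in a p53 response element and reads the same on both strands. A decamer that matches at every position was found for Bax, Aen and Ei24, 3 of 7 genes, beside 9.55% of the 27025 genes in the table. A pair of decamers at most 13 bases apart, with both CNNG cores intact and at most 3 mismatches in all, was found for Bbc3, Bax and Aen, beside 17.4% of genes. None was found in the windows of Fas, Eda2r and Apaf1. A match describes these letters only and is not a measured binding site. The stretches that hold the matches are shown because these genes rose together; capitals mark the decamers, positions count from the start site, and stretches that are exonic in GENCODE vM21 are limited to 30 bases.
Bbc3, chr7:16309446-16309545, plus strand, positions -137 to -38: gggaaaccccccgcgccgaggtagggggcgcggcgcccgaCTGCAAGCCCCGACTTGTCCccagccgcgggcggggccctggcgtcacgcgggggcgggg
Bax, chr7:45467039-45467139, minus strand, positions -241 to -141: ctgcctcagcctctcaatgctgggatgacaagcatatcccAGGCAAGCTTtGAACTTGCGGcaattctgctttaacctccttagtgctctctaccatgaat
Aen, chr7:78895932-78895961, plus strand, positions -126 to -97 from its second start site: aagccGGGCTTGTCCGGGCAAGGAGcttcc
Ei24, chr9:36797325-36797354, minus strand, positions -20 to 10: cgtgcggcccGGGCATGCCCagtgtgggcg
In Bbc3 the decamers adjoin at -97 and -87 with 2 and 1 mismatches. In Bax they start at -201 with 0 mismatches and at -190 with 2, with 1 base between them. In Aen they adjoin at -121 and -111 with 0 and 3 mismatches, and Ei24 holds a single decamer at -10 with 0 mismatches. The window of a second start site of Bbc3 also held a pair, with 2 bases between the decamers.

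Among the receptors, Tnfrsf10b and Eda2r were plainly expressed in extract livers and had at most 48 reads in a control library, whereas Fas was well expressed in both groups. Tnfrsf10b encodes the mouse receptor for the death ligand TRAIL and lies on chromosome 14 (69767472 to 69784411, plus strand, GRCm38). It had 999 and 917 reads in the extract libraries, against 13 and 7 reads in the control libraries, or 21.2 ± 2.77 CPM against 0.253 ± 0.025 CPM (SD, n = 2 libraries each). Even the lower extract library stood 71-fold above the higher control library. The difference was 81.8-fold (log2 fold change 6.35 with an SE of 0.27, adjusted p = 0.000206 by edgeR), the fifth smallest p-value of all genes tested.

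Eda2r, on chromosome X (97333840 to 97377216, minus strand), encodes a TNF family receptor for the A2 form of ectodysplasin that lacks a classical death domain. Its reads came to 1881 and 2290 in the extract libraries, against 48 and 15 in the control libraries, or 45.8 ± 3.15 CPM against 0.753 ± 0.350 CPM. The control libraries differed 1.98-fold between themselves, which is small beside the 43.6-fold distance between the nearest libraries of the groups. The difference was 58.2-fold (log2 fold change 5.86 with an SE of 0.30, adjusted p = 0.000292 by edgeR).

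Fas, the receptor for Fas ligand, lies on chromosome 19 (34290666 to 34327772, plus strand) and is normally made by hepatocytes. It had 34.95 and 35.13 CPM in the extract libraries, against 19.8 and 24.6 CPM in the control libraries. The extract libraries nearly coincided and the groups did not overlap. At 1.58-fold (log2 fold change 0.66, SE 0.16) the difference was not past the threshold (edgeR adjusted p = 0.0516), although it passed in 8 of 12 alternatives. Those 8 include the fits without a control library, where the lone control library is assumed to vary like the extract pair. The log2 fold change ran from 0.51 to 0.83 over all 12.

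No tested ligand of these or related receptors was called higher. Of 8 ligands on the list only 4 had enough reads to be tested; 3 were lower, 0 were higher and the median log2 fold change was -1.96. Tnfsf10, which encodes TRAIL, had 2.87 and 2.43 CPM in the extract libraries, against 8.90 and 5.72 CPM in the control libraries (log2 fold change -1.47 with an SE of 0.32, adjusted p = 0.0366 by edgeR). Eda, whose A2 form binds Eda2r, had 0.278 and 0.420 CPM, against 2.35 and 1.48 CPM (log2 fold change -2.45 with an SE of 0.56, adjusted p = 0.0456 by edgeR). Gene counts do not separate the A1 and A2 forms. Ltb, lymphotoxin beta, had 0.533 and 0.357 CPM, against 3.33 and 1.55 CPM (-2.46 with an SE of 0.58, adjusted p = 0.0479 by edgeR).

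Fasl, the ligand of Fas, was too scarce to test, at 0 and 8 reads in the extract libraries and 32 and 2 reads in the control libraries. All 3 ligand calls were lost without extract replicate 1 (edgeR adjusted p = 0.157 for Tnfsf10, 0.326 for Eda and 0.168 for Ltb), without extract replicate 2 (0.224, 0.189 and 0.268), as well as with total-count scaling (0.0663, 0.0606 and 0.0689). With limma-voom only Tnfsf10 stayed called (adjusted p = 0.0453), and Eda (0.0575) and Ltb (0.0741) did not pass. The call of Ltb was lost without control replicate 1 as well (0.0553), and that of Eda with the replicate number as an added term (0.0514). The markers of T and NK cells, which make several of these ligands, summed to 1.95 and 3.48 CPM in extract libraries and to 30.4 and 7.44 CPM in control libraries, with 0 of 11 past the threshold and none at 0 in all 4 libraries. The part of these cells in the ligand values was not tested.

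**Figure D3:**
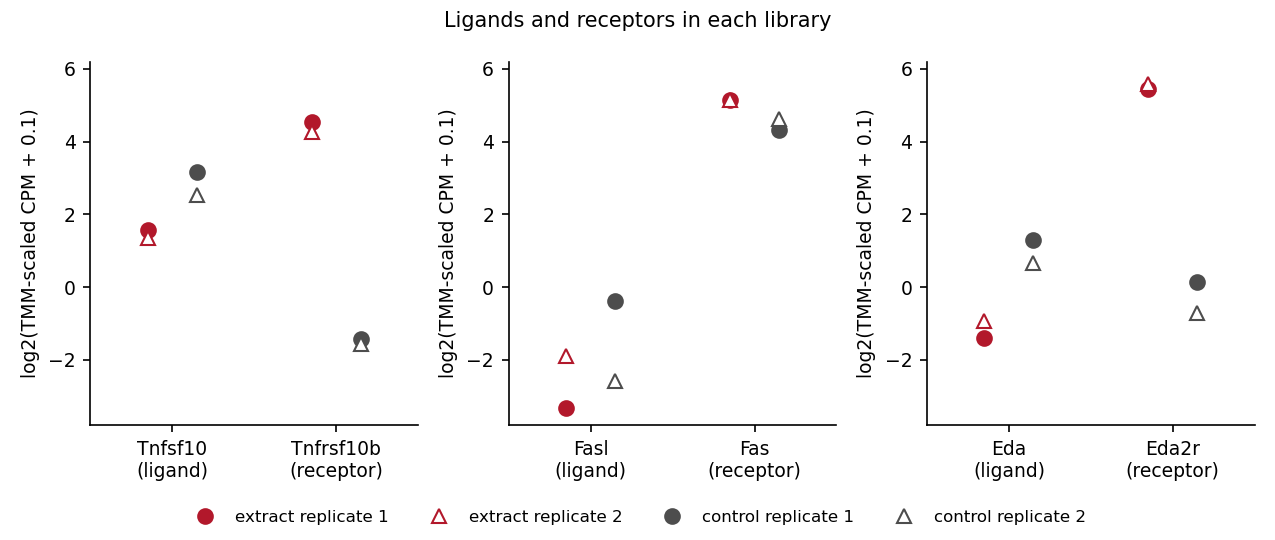
Level of 3 ligands and their receptors in each library, as log2(TMM-scaled CPM + 0.1), with extract in red to the left and control in grey to the right; circles are replicate 1 and triangles replicate 2. For Tnfsf10 with Tnfrsf10b and for Eda with Eda2r the ligand lies lower and the receptor higher in extract libraries, while Fasl overlaps between the groups.

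Other TNF family receptors moved in both directions, with 3 of 10 higher, 1 lower and 6 not past the threshold, and a median log2 fold change of 0.20. Those that rose were Tnfrsf12a, the Fn14 receptor for TWEAK (2.26, SE 0.16), and Tnfrsf23 (3.01, SE 0.38) and Tnfrsf22 (2.31, SE 0.42), which in the mouse are decoy receptors that bind TRAIL without a death domain. Tnfrsf23 had 4.36 and 4.03 CPM in the extract libraries, against 0.5 and 0.538 CPM in the control libraries, and Tnfrsf22 had 5.28 and 3.48 CPM, against 1.04 and 0.707 CPM. All 3 receptors that rose were higher in both extract libraries. Reads aligned to several places were not counted, and sequence shared by the close relatives Tnfrsf22 and Tnfrsf23 was not measured. Without extract replicate 1, neither passed (edgeR adjusted p = 0.216 for Tnfrsf22 and 0.0544 for Tnfrsf23), and Tnfrsf22 also missed the threshold without extract replicate 2 (0.0542). Tnfrsf21, the death receptor DR6, fell (-0.98 with an SE of 0.23, adjusted p = 0.0458 by edgeR), a call that was lost under scaling by total counts (0.0876) and when extract replicate 1 (0.308) or extract replicate 2 (0.141) was left out.

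Downstream of the receptors, none of 15 adaptors and brakes passed the threshold with edgeR's test, and 4 had an unadjusted p under 0.05, all 4 lower in extract. Over all genes tested, 11.2% were lower and 12.3% higher at an unadjusted p under 0.05. The adaptor Fadd had 13.4 and 12.5 CPM in the extract libraries, against 10.8 and 10.4 CPM in the control libraries (log2 fold change 0.29 with an SE of 0.17, adjusted p = 0.379 by edgeR). Casp8, the initiator caspase, had 26.6 and 30.8 CPM, against 26.3 and 38.0 CPM (-0.16 with an SE of 0.20, adjusted p = 0.699 by edgeR). Cflar, the inhibitor cFLIP, had 126.1 and 105.0 CPM, against 146.8 and 149.1 CPM (-0.36 with an SE of 0.15, adjusted p = 0.204 by edgeR). The list's median was -0.13. DESeq2 and limma-voom also called 0 of its genes, while leaving out control replicate 1 gave 2 lower calls and leaving out control replicate 2 gave 3.

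At the mitochondrion, Bax rose about 5-fold, Pmaip1 about 4-fold and Bbc3 about 2-fold. Bax, the pore-forming effector on chromosome 7 (45461697 to 45466898, minus strand), had 3986 and 4484 reads in the extract libraries, against 824 and 560 reads in the control libraries, or 93.2 ± 1.21 CPM against 18.0 ± 1.18 CPM (SD, n = 2 libraries each). Libraries of the same group differed by at most 1.10-fold, and the groups were 4.90-fold apart at their nearest. Extract exceeded control by 2.37 on the log2 scale (SE 0.14, edgeR adjusted p = 0.000442). In GENCODE vM21 12.2% of the exonic bases of Bax also belong to Gm45808, a gene on the same strand that is not listed in the count files.

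The BH3-only gene Bbc3, also on chromosome 7 (16308393 to 16318205, plus strand), encodes PUMA, which binds all the pro-survival Bcl-2 proteins. It had 31.1 and 32.8 CPM in the extract libraries, against 18.7 and 13.7 CPM in the control libraries. The groups did not overlap, and the control libraries were 1.36-fold apart. On the log2 scale extract was higher by 0.98 (SE 0.18, edgeR adjusted p = 0.0233), a call that did not hold without extract replicate 1 (0.0967) or without extract replicate 2 (0.133).

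Pmaip1, on chromosome 18 (66458533 to 66465565, plus strand), encodes Noxa, a BH3-only protein that binds Mcl-1. It was the scarcest of the 10 genes by reads in extract livers, with 213 and 206 reads in the extract libraries, against 54 and 31 reads in the control libraries, or 4.63 ± 0.434 CPM against 1.08 ± 0.058 CPM. The nearest libraries of the groups were 3.84-fold apart. This was a log2 fold change of 2.09 (SE 0.34, edgeR adjusted p = 0.0144), and the adjusted p was 0.156 without extract replicate 1 and 0.0947 without extract replicate 2.

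The rest of the Bcl-2 family was mostly not past the threshold. Among 9 other pro-apoptotic members 1 was higher and 0 lower, the other 8 missed the threshold, and the median log2 fold change was 0.02. The one that rose was Bcl2l11, the BH3-only protein Bim (1.12 with an SE of 0.27, adjusted p = 0.0498 by edgeR), at 14.3 and 15.2 CPM in the extract libraries, against 8.40 and 5.08 CPM in the control libraries; the call was lost under a stricter filter on low counts (0.0562) and when extract replicate 1 (0.169) or extract replicate 2 (0.223) was left out. Bak1, the second pore-forming effector, stood at 16.5 and 13.9 CPM, against 15.4 and 14.8 CPM (log2 fold change 0.0054 with an SE of 0.17, adjusted p = 0.990 by edgeR), so that the Bak1 groups overlapped where those of Bax were well apart.

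Among 6 tested anti-apoptotic members 1 rose, 0 fell and 5 did not pass, with a median of -0.16. Bcl2l1, which encodes Bcl-xL, the main survival protein of hepatocytes together with Mcl-1, had 90.6 and 94.0 CPM in the extract libraries, against 43.0 and 34.1 CPM in the control libraries (log2 fold change 1.26 with an SE of 0.16, adjusted p = 0.00683 by edgeR), and passed in all 12 alternatives. Mcl1 had 139.3 and 154.1 CPM, against 149.6 and 103.5 CPM (0.21 with an SE of 0.20, adjusted p = 0.588 by edgeR), and Bcl2 had 3.04 and 2.64 CPM, against 5.48 and 2.36 CPM (-0.47 with an SE of 0.44, adjusted p = 0.589 by edgeR). Within a library, where scaling cancels, there were 1.02 and 1.0 Bax reads for each Bcl2l1 read in extract and 0.399 and 0.553 in control. These are ratios of reads that are not corrected for gene length, so only their difference between libraries can be read.

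Apaf1, the scaffold of the apoptosome on chromosome 10 (90989311 to 91082770, minus strand), varied most between libraries of a group. It had 19.4 and 12.99 CPM in the extract libraries, against 6.63 and 2.73 CPM in the control libraries. The extract libraries were 1.49-fold and the control libraries 2.43-fold apart, and the nearest libraries of the groups were 1.96-fold apart. Extract exceeded control by 1.77 on the log2 scale (SE 0.45, edgeR adjusted p = 0.0748). Over the 12 alternatives the log2 fold change ran from 1.29 to 2.57, and Apaf1 passed in 4 of them. Among these were the fits without a control library, which drop the control spread and assume that the lone control library varies like the closer extract pair.

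Of 14 other genes of the apoptosome, the caspases and the factors that mitochondria release, 1 was higher and 0 lower, the other 13 missed the threshold, and the median log2 fold change was 0.04. The one that rose was Endog, a mitochondrial nuclease, with 92.6 and 90.3 CPM in the extract libraries, against 36.6 and 34.6 CPM in the control libraries (1.36 with an SE of 0.13, adjusted p = 0.00262 by edgeR). Cytochrome c (Cycs) had 98.6 and 106.9 CPM, against 86.7 and 126.5 CPM (-0.05 with an SE of 0.20, adjusted p = 0.916 by edgeR). Casp9 had 19.98 and 20.6 CPM, against 23.6 and 16.3 CPM (0.02 with an SE of 0.20, adjusted p = 0.964 by edgeR). The groups overlapped in both genes. None of 6 inhibitor of apoptosis genes passed in either direction with edgeR's test, 0 had an unadjusted p under 0.05, and 0 were called by DESeq2 or limma-voom. Their median was -0.08.

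**Figure D4:**
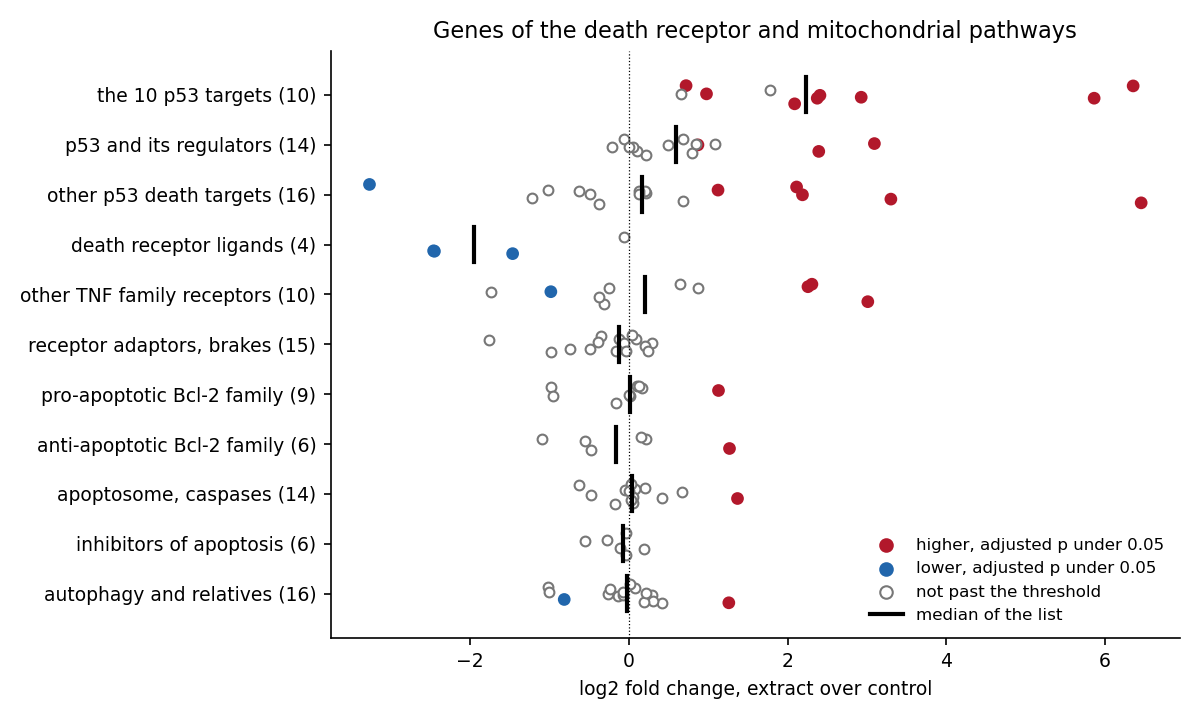
The log2 fold change, extract over control, of each tested gene of the 10 p53 targets and of 10 lists of pathway genes (number tested in brackets); red points were called higher, blue points lower and open points neither at an edgeR adjusted p of 0.05, and the black bar is the median of the list. The median of the 10 targets is 2.23, while the medians of the lists of adaptors, Bcl-2 family members, caspases and inhibitors lie between -0.16 and 0.04.

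The other 3 genes act in the nucleus, in autophagy and at the endoplasmic reticulum. Aen, an exonuclease that digests DNA in apoptosis, lies on chromosome 7 (78895854 to 78911209, plus strand). It had 5331 and 5390 reads in the extract libraries, against 750 and 460 reads in the control libraries, or 118.3 ± 7.39 CPM against 15.6 ± 0.106 CPM (SD, n = 2 libraries each). Libraries of the same group differed by at most 1.09-fold, and the groups were 7.24-fold apart at their nearest. On the log2 scale extract was higher by 2.93 (SE 0.14, edgeR adjusted p = 0.000292).

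Trp53inp1, on chromosome 4 (11156431 to 11174379, plus strand), encodes a protein that promotes p53 phosphorylation and takes part in autophagy by binding LC3 proteins. It had 480.2 and 351.3 CPM in the extract libraries, against 93.9 and 62.7 CPM in the control libraries. Replicate 1 was the higher library in both groups, and the groups were 3.74-fold apart at their nearest. This was a log2 fold change of 2.41 (SE 0.26, edgeR adjusted p = 0.00441). Trp53inp1 made up 39.0% and 32.3% of the reads of the 10 genes in the extract libraries, against 22.9% and 17.3% in the control libraries.

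Ei24, also called PIG8, is a protein of the endoplasmic reticulum with a role in autophagy, on chromosome 9 (36779159 to 36797393, minus strand). It was the most abundant of the 10 in control livers, where it made up 57.6% and 61.4% of their reads, against 30.7% and 34.7% in extract livers. Its levels were 377.9 and 377.5 CPM in the extract libraries, against 236.4 and 222.1 CPM in the control libraries. At 1.65-fold (log2 fold change 0.72 with an SE of 0.14, adjusted p = 0.0236 by edgeR) it was the smallest difference to pass, and it did not pass without extract replicate 1 (0.232) or without extract replicate 2 (0.223). In GENCODE vM21 6.66% of its exonic bases overlap the antisense gene Gm26787, whose reads could not be told apart without a stated strand setting. Of all 75-base stretches in the annotated transcripts, 4.98% of those of Ei24 and 6.84% of those of Bax also occur in another gene, and at most 2.53% in the other 8 genes.

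Among 16 relatives and autophagy partners of these genes, 1 rose (Bcl2l1, above), 1 fell and 14 did not pass, with a median log2 fold change of -0.03. The one that fell was Gabarapl1, an LC3 family protein, at 235.9 and 256.8 CPM in the extract libraries, against 473.7 and 393.1 CPM in the control libraries (-0.82 with an SE of 0.16, adjusted p = 0.0251 by edgeR). That call was lost under scaling by total counts (0.0556) and when extract replicate 1 (0.246) or extract replicate 2 (0.140) was left out.

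The regulators of p53 were partly higher as well. The mRNA of p53 itself (Trp53) had 21.3 and 22.9 CPM in the extract libraries, against 23.8 and 27.3 CPM in the control libraries (log2 fold change -0.21 with an SE of 0.15, adjusted p = 0.466 by edgeR). Of 14 tested genes in the list of p53, its relatives and its regulators 3 rose, 0 fell and 11 did not pass, and the median was 0.59. The ligase Mdm2, itself a p53 target, had 156.4 and 137.1 CPM, against 27.6 and 28.3 CPM (2.39 with an SE of 0.15, adjusted p = 0.000476 by edgeR), close to the log2 fold change of Bax. Ccng1, cyclin G1, rose by 3.09 (SE 0.16) on the log2 scale, and the damage kinase Atr by 0.87 (SE 0.19, edgeR adjusted p = 0.0394), a call that was lost without extract replicate 1 (0.362), without extract replicate 2 (0.0807) and with limma-voom (0.0521).

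Other p53 targets linked to cell death did not all move the same way: 5 of 16 were higher and 1 lower, the other 10 missed the threshold, and the median log2 fold change was 0.17. Besides Phlda3 (6.45), a repressor of Akt, and Bcl2l11, those that rose were Zmat3, a zinc finger protein that binds RNA (3.30, SE 0.18), Siva1, a protein that binds TNF family receptors (2.19, SE 0.26), and Pidd1, the platform for caspase 2 (2.11, SE 0.28). Pidd1 had 9.69 and 7.39 CPM in the extract libraries, against 1.83 and 2.12 CPM in the control libraries, and missed the threshold without extract replicate 1 (edgeR adjusted p = 0.0848).

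Igfbp3, an insulin-like growth factor binding protein, fell, with 8.00 and 7.24 CPM in the extract libraries, against 106.5 and 40.2 CPM in the control libraries (-3.27 with an SE of 0.54, adjusted p = 0.0406 by edgeR). Its control libraries were far apart, and the call was lost without extract replicate 1 (0.411), without extract replicate 2 (0.378) and without a filter on low counts (0.180). Counted once each, 105 tested pathway genes held 13 higher (12.4%) and 6 lower, with a median log2 fold change of 0.02.

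By Euclidean distance over the 4 libraries on a centred log2 scale, the genes whose profile was most like the mean profile of the 10 were Mmrn2 (distance 0.0837), Plk2 (0.0858), Cyp2a5 (0.136), Lgals1 (0.197) and Ptk7 (0.245), out of 9495 other genes with a mean of at least 5 CPM. With 4 libraries in 2 groups, likeness is set mostly by the size of the group difference, and these 5 had log2 fold changes from 2.55 to 2.76.

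The calls differed in how far they rested on a single library. Tnfrsf10b, Eda2r, Aen, Trp53inp1 and Bax passed under all 12 alternatives, and all 10 genes kept a positive log2 fold change in each of them. Pmaip1, Bbc3 and Ei24 lost their calls when either extract library was left out, which left 5 of 10 genes called. In those fits the lone extract library was assumed to vary like the control pair. The control libraries were less alike (r = 0.979 on log2 CPM) than the extract libraries (0.993). Over the 12 alternatives the log2 fold change ran from 1.98 to 2.25 for Pmaip1, 0.78 to 1.22 for Bbc3 and 0.68 to 0.89 for Ei24. These lost calls thus do not show that a difference rested on 1 library.

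**Figure D5:**
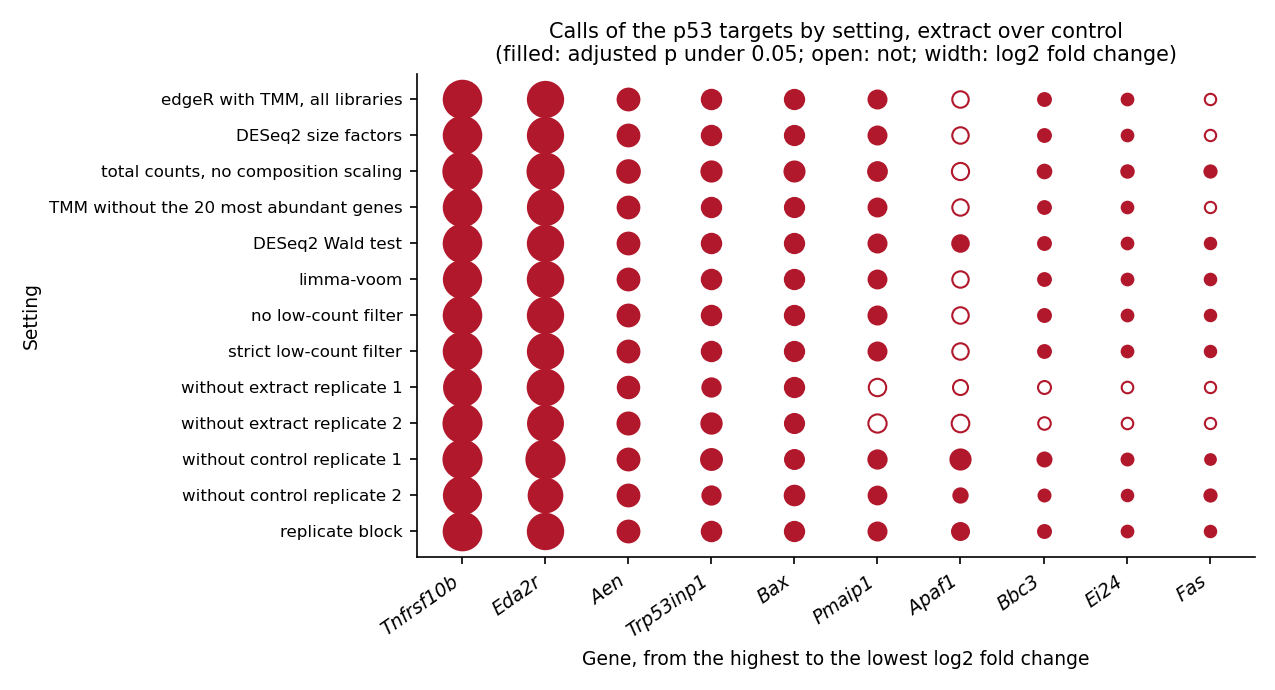
Calls of the 10 genes under each setting, ordered by log2 fold change; a filled circle has an adjusted p under 0.05, an open one does not, and the width grows with the log2 fold change, extract over control. Tnfrsf10b, Eda2r, Aen, Trp53inp1 and Bax are filled under every setting, Pmaip1, Bbc3 and Ei24 are open where an extract library is left out, and Apaf1 and Fas are open there and under other settings too.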

How the data were processed

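RNA from mouse liver was sequenced in 2 libraries of extract-dosed mice and 2 of saline-dosed mice. The authors deposited raw read counts per gene for each library. Per the submitters' processing notes, CASAVA 1.8, HISAT2 2.1.0, HTSeq and the build mm10 were used, and a strand setting is not given in the sources used here. Between 78.0% and 83.5% of the reads in a file were assigned to a gene; the lines for unassigned reads (multi-mapped 5.18% to 9.03%, no feature 8.40% to 10.2%, ambiguous 0.989% to 1.21%, low quality 0.556% to 0.733%, not aligned 0.552% to 0.776%) were left out of library sizes and tests.

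Counts were filtered with filterByExpr, scaled by TMM and tested across 13963 genes with edgeR 4.0.16's quasi-likelihood test (R 4.3.3) and Benjamini-Hochberg adjustment at 0.05; the biological coefficient of variation was 22.3%. An exact permutation test of 2 against 2 libraries cannot go below p = 0.333. One read was worth 0.0208 to 0.0337 CPM. No 2 libraries of a group agreed within sampling noise. Alternatives were DESeq2 1.42.0, limma-voom 3.58.1, other scalings and filters, a replicate block, and leaving out each library. The code was tested on simulated data with 50 genes changed at each size. It recovered 43 of them at 8-fold, 38 at 4-fold, 22 at 2-fold and 4 at 1.5-fold. Another 25 genes that were not changed were called, a larger share of all calls in that simulation than the 0.05 the threshold aims at. A gene that is not past the threshold here may thus still differ between the groups, and a call may be false.

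Positions and exon lengths came from GENCODE vM21, and promoters from RefSeq. The text names all 10 genes, Trp53, Mdm2, direct partners (1 of them is not reported here), up to 4 called genes per direction and pathway list by smallest p, and the 5 genes of most similar profile. The 10 genes and all lists were chosen with earlier results of these data known.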

Additional observations from a re-analysis of the deposited data

How the results depend on the processing

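Of the 10 genes, 5 to 10 were called higher when 1 library was left out (8 with all libraries) and 0 were lower; their median log2 fold change ran from 2.07 to 2.44. Over all genes, leaving out 1 library gave 233 to 1826 higher calls (686 with all libraries) and 134 to 1782 lower calls (507), and among pathway genes 8 to 21 higher (13) and 0 to 21 lower (6). The low ends came without an extract library, where the lone library is assumed to vary like the control pair. The high ends came without a control library, where the lone library is assumed to vary like the closer extract pair. DESeq2 called 909 genes lower and 10 pathway genes lower. Scaling by total counts left 1 pathway gene lower, moved the median of all genes to 0.16 on the log2 scale, and gave 940 higher and 338 lower calls, 73.6% higher against 57.5% with TMM. Library numbers were not taken to pair the libraries: deviations of same-numbered libraries correlated with r = 0.142, which 2 pairs force to be equal. With the replicate block, 902 genes were higher and 682 lower, and 10 of the 10 genes passed, Fas (edgeR adjusted p = 0.0317) and Apaf1 (0.00587) included, while the lower call of Eda was lost (0.0514). Of 1376 values of the 10 genes and the tested pathway genes under the 12 alternatives, 69 gained and 38 lost a call. In 0 of them did the sign reverse with a call in either fit. Genes that were never called could change sign, such as Cycs, whose log2 fold change ran from -0.30 to 0.25. Depth limits Tnfrsf10b and Eda2r in control livers, where 3 reads correspond to 0.0625 and 0.101 CPM, and the untested ligands.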
